A study of Mus musculus with 12 samples.

Results

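Rod and cone outer segments are stacks of membrane discs held in shape by a small set of structural proteins and surrounded by a specialised matrix. The transcripts described here are those of 8 such genes, Prph2, Rom1, Prom1, Cdhr1, Rp1, Abca4, Impg1 and Impg2. They were chosen by name for the place of their products in the outer segment, with earlier results of these data known. All 8 were found among the 17579 genes of the count table, by matching the Ensembl identifiers to GENCODE mouse gene names. They were measured by RNA sequencing in retinas and striata, from R6/1 mice, a transgenic model of Huntington's disease that carries exon 1 of the human huntingtin gene with an expanded CAG repeat under the human promoter, and from wild type (wt) mice. The 12 libraries form 4 groups of 3: R6/1 retina, wt retina, R6/1 striatum and wt striatum. All mice were males on the C57Bl/6 background (C57BL/6J by the study's methods), aged 13 to 15 weeks and untreated. By the study's methods each library was made from pooled RNA of several mice, with retina and striatum taken from the same animals, so the spread given is that between pools.

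In rods, new discs form as folds of the plasma membrane at the base of the outer segment and close over at their rims. They move outward as old discs are shed at the tip. Peripherin-2 (Prph2) and its relative Rom1 are tetraspanins that assemble at the rim and bend the membrane there. Prominin-1 (Prom1) and the photoreceptor cadherin Cdhr1 lie at the base, where new discs take shape, Rp1 binds the microtubules of the axoneme along which discs are stacked, and Abca4 is a rim transporter that clears retinal adducts of the visual cycle. Impg1 and Impg2 are proteoglycans of the interphotoreceptor matrix, the material between the outer segments and the retinal pigment epithelium. Inherited variants in most of these genes are known for retinal degeneration in humans.

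The libraries held 17024353 to 17926885 counts in R6/1 retina, 14070445 to 18661772 in wt retina, 15885261 to 22432431 in R6/1 striatum and 17206379 to 20159277 in wt striatum. No 2 libraries held identical values. Levels are given as CPM, counts scaled to one common library total, with TMM factors that align the bulk of genes between libraries. The 8 genes took 0.791 to 0.917% of all counts in R6/1 retinas and 1.30 to 1.33% in wt retinas. In the striatum they took 0.00351 to 0.00387% in R6/1 and 0.00363 to 0.00412% in wt mice.

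Summed over the 6 disc and axoneme genes, the retinal level was 6185 to 7439 CPM in R6/1 retinas and 12173 to 12713 CPM in wt retinas. Summed over the 2 matrix genes, it was 1112 to 1208 CPM in R6/1 and 1079 to 1215 CPM in wt retinas. All 6 disc and axoneme genes were downregulated in R6/1 retina, whereas neither matrix gene passed the test. A gene counted as called at an adjusted p-value under 0.05 in edgeR's quasi-likelihood test, with Benjamini-Hochberg adjustment over the 16582 genes tested. Thus 6 of 8 genes were called lower, where 12.7% of all tested genes were. The R6/1 and wt libraries did not overlap for these same 6 genes, against 38.4% of all tested genes. The median log2 fold change of the 8 genes was -0.44, and that of all tested genes was 0.01. In bulk tissue, fewer photoreceptors and less RNA per photoreceptor cannot be told apart.

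**Figure D1:**
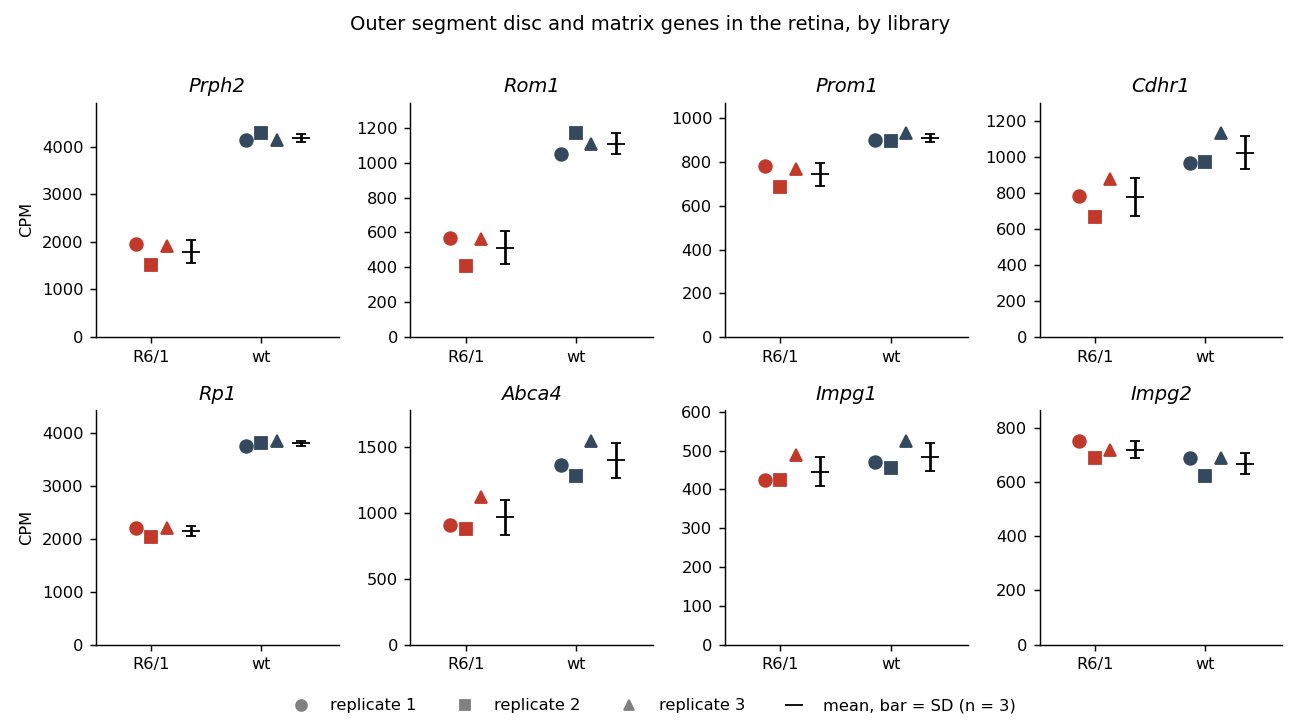
Level of each gene in the 6 retinal libraries, in TMM-adjusted CPM on axes that start at 0 and differ between genes. Symbols are single libraries, R6/1 left of wt, and the black dash and bar beside each group are its mean and SD (n = 3). The points of Prph2, Rom1, Prom1, Cdhr1, Rp1 and Abca4 do not overlap between genotypes, and those of Impg1 and Impg2 do.

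To show the genes whose results stand furthest apart, the proximal promoters of the rim tetraspanins and of the matrix proteoglycans are given here. They come from RefSeq on GRCm38.p6 and run from 250 bases before to 50 bases after the transcript start, 5′ to 3′ on the gene's strand. Such windows were matched for 7 of the 8 genes, all but Rp1. The capitals mark TAATC, the core bound by photoreceptor homeodomain factors such as CRX, or its reverse complement GATTA. The window of Prph2 is chr17:46910228-46910527 on the plus strand, that of Rom1 chr19:8929307-8929606 on the minus strand, that of Impg1 chr9:80465389-80465688 on the minus strand and that of Impg2 chr16:56204063-56204362 on the plus strand.
Prph2: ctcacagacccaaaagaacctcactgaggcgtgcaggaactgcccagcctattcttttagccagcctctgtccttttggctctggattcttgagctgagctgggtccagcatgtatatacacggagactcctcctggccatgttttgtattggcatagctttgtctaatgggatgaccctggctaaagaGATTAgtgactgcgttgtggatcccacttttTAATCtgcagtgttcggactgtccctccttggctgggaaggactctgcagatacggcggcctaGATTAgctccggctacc
Rom1: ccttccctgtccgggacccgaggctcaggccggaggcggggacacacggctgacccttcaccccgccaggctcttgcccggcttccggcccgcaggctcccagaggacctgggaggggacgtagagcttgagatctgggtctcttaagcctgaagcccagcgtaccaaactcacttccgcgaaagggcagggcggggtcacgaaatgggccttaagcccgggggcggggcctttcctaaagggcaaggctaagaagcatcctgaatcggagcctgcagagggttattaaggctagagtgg
Impg1: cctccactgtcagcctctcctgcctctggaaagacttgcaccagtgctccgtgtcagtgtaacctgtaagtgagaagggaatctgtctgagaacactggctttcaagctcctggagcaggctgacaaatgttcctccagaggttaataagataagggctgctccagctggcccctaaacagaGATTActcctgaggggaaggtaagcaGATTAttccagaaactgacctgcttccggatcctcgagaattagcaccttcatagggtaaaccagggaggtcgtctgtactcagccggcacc
Impg2: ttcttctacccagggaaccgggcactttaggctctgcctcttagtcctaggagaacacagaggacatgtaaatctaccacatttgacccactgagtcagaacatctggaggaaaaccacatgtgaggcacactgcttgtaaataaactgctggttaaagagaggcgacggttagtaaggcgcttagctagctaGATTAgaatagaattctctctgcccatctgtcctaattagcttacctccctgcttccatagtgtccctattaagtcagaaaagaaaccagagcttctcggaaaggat

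TAATC on either strand occurred 3 times in the Prph2 window, 2 times in that of Impg1 and once in that of Impg2, and had no match in that of Rom1. Among the others, Abca4 had 2 matches and Cdhr1 none, and Prom1 had 1 match in one of its annotated start windows and none in the other. The core was present in 22.0% of all 32851 promoter windows of this length in the same source. One match in Abca4 was the longer form TAATCC, found in 7.06% of windows. TGCTGA, the core of the Maf-family element to which the rod factor NRL binds, was also searched on both strands, and had no match in the windows of the 7 genes and occurred in 19.5% of all windows. These matches describe letters in the windows and were not tested against the expression values.

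Prph2 (ENSMUSG00000023978, chromosome 17 from 46910459 to 46924933 on GRCm38) had the largest decrease of the 8. Its level was 1959, 1515 and 1911 CPM in the R6/1 retinas, against 4138, 4281 and 4144 CPM in the wt retinas. Every R6/1 retina lay below every wt retina. The means were 1795 ± 243 CPM in R6/1 and 4188 ± 81.3 CPM in wt (SD, n = 3 each), and the fitted level fell by 56.2%, a log2 fold change of -1.19 (SE 0.09, edgeR adjusted p = 1.17e-07). Of all tested genes, 3.37% had a log2 fold change as low.

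Rom1 (ENSMUSG00000071648, chromosome 19 from 8927391 to 8929356) encodes the tetraspanin that pairs with peripherin-2 in the rim. It had 570.0, 405 and 565 CPM in R6/1 retinas and 1050.1, 1169 and 1109.7 CPM in wt retinas. Again the genotypes did not overlap, and R6/1 replicate 2 was the lowest of all. The log2 fold change was -1.08 (SE 0.13, edgeR adjusted p = 0.000395). Their ratio overlapped between genotypes. The log2 ratio of Prph2 to Rom1 counts within a library averaged 1.81 ± 0.08 in R6/1 and 1.92 ± 0.05 in wt retinas (SD, n = 3 each), a difference of -0.10.

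Rp1 (ENSMUSG00000025900, chromosome 1 from 3999557 to 4409241) is the microtubule-associated protein of the axoneme. It measured 2213, 2036 and 2196 CPM in R6/1 retinas and 3749.5, 3817 and 3850.0 CPM in wt retinas. The groups were far apart next to the spread within each, at 2149 ± 97.6 CPM in R6/1 and 3806 ± 51.2 CPM in wt (SD, n = 3 each). Its log2 fold change was -0.79 (SE 0.08, edgeR adjusted p = 7.98e-07).

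Abca4 (ENSMUSG00000028125, chromosome 3 from 122044443 to 122180123), the transporter of the disc rim, fell less. It had 905, 876 and 1119 CPM in R6/1 retinas, against 1366, 1283 and 1547 CPM in wt retinas. The highest R6/1 library stayed below the lowest wt library. The log2 fold change was -0.50 (SE 0.10, edgeR adjusted p = 0.00154).

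The genes of disc formation at the outer segment base had the smallest decreases among those called. Cdhr1 (ENSMUSG00000021803, chromosome 14 from 37077857 to 37098347) had 785, 667 and 877 CPM in R6/1 retinas and 967, 975 and 1132 CPM in wt retinas. Its log2 fold change was -0.37 (SE 0.10, edgeR adjusted p = 0.0130). Prom1 (ENSMUSG00000029086, chromosome 5 from 43993620 to 44102032) had 780.2, 685 and 771 CPM in R6/1 retinas and 902, 899 and 932 CPM in wt retinas. The wt libraries of Prom1 lay close together and above all R6/1 libraries, with a log2 fold change of -0.26 (SE 0.07, edgeR adjusted p = 0.0128). Both calls were lost without wt retina replicate 3 (adjusted p = 0.0578 for Cdhr1 and 0.0508 for Prom1), and that of Cdhr1 also without R6/1 retina replicate 1 (adjusted p = 0.0622). Gm16401, annotated on the opposite strand, shares 424 exonic bases with Prom1, and the sources used here do not say whether the counting used strand.

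Neither matrix gene passed the test. Impg1 (ENSMUSG00000032343, chromosome 9 from 80313330 to 80465481) had 424, 424 and 489 CPM in R6/1 retinas and 471, 455 and 525 CPM in wt retinas. The genotypes overlapped, and the log2 fold change was -0.09 (SE 0.07, edgeR adjusted p = 0.427). Impg2 (ENSMUSG00000035270, chromosome 16 from 56204313 to 56273756) had 752, 687 and 719.9 CPM in R6/1 retinas, against 689.7, 624 and 690.5 CPM in wt retinas. It was the one gene of the 8 with a positive log2 fold change, 0.14 (SE 0.07, edgeR adjusted p = 0.164), which passed the test only when library totals replaced TMM (0.25, adjusted p = 0.00874). That scaling moved the median of all genes to 0.13. Within a library, the log2 ratio of Impg2 to Impg1 counts averaged 0.69 ± 0.13 in R6/1 and 0.47 ± 0.08 in wt retinas (SD, n = 3 each). The groups only just stood apart, at 0.559 for the lowest R6/1 library and 0.550 for the highest wt library. This ratio was not among those planned.

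**Figure D2:**
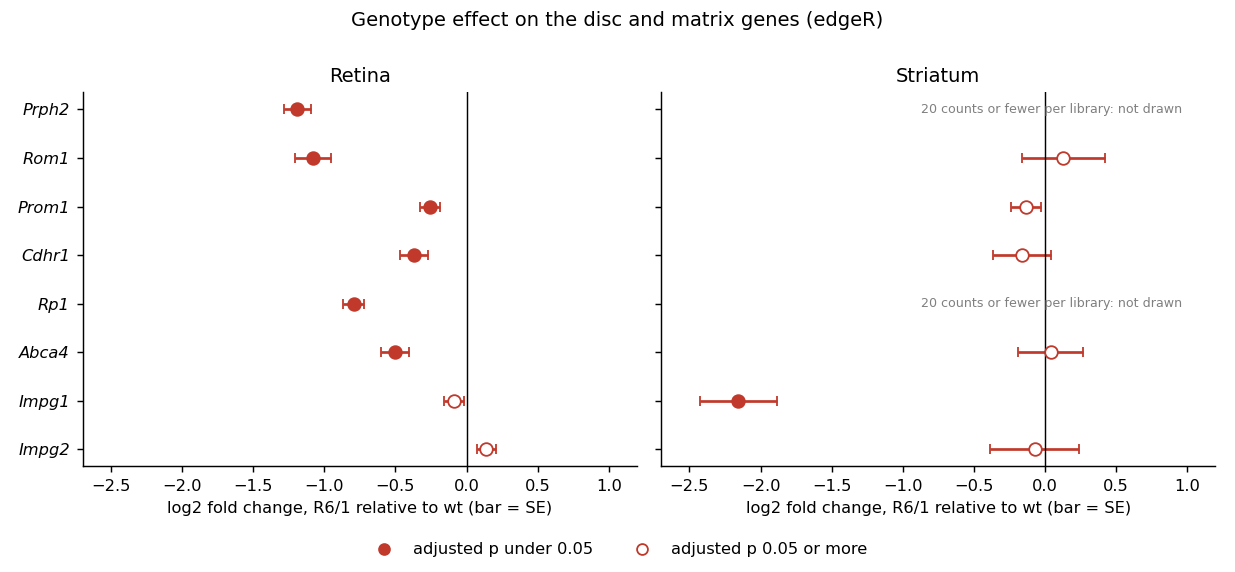
Fitted log2 fold change of each gene for R6/1 against wt retina and for R6/1 against wt striatum, with 1 standard error either side. Filled symbols passed an adjusted p-value under 0.05 in edgeR, and striatal Prph2 and Rp1 are not drawn because of their few counts. In the retina the values run from -1.19 for Prph2 to 0.14 for Impg2, and in the striatum only Impg1, at -2.16, is filled.

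One library of each genotype stood at the edge of its group for most of the genes. R6/1 retina replicate 2 was the lowest of its group for 7 of the 8 genes, Impg1 being the exception, and wt retina replicate 3 was the highest of its group for 6. The summed level of 11 rod markers, all downregulated in R6/1 retina, was 23845, 17995 and 25741 CPM in R6/1 replicates 1 to 3 and 58656, 58673 and 66591 CPM in wt replicates 1 to 3. So the same R6/1 library was lowest in rod markers and in 7 of these genes. The part of rod abundance in the decreases was not tested.

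Markers of several other retinal cell types were measured beside these. Of 9 cone markers 8 were called lower, the exception being Gnb3, which was higher and is also found in bipolar cells, and all 7 bipolar markers were lower. Of 5 amacrine markers 4 were lower (Tfap2a, Tfap2b, Slc6a9 and Pax6), of 6 Muller glia markers Glul was lower and Vim higher, of 6 microglia markers Csf1r and C1qa were higher, and of 4 endothelial markers Flt1 was lower. The sum of 8 markers of the retinal pigment epithelium was 73.7 to 97.2 CPM in R6/1 and 89.6 to 104 CPM in wt retinas. Of all 16582 genes tested in the retina, 2103 (12.7%) were called lower and 1588 higher. Single calls in a short list are not read as a change of its cell type. The part of these cell types in the results was not tested.

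Among 19 further genes of outer segment structure and cilium, 16 were downregulated in the R6/1 retina, where 12.7% of all tested genes were. Some of the 19 are also among the rod or cone markers. Over all 19 the median log2 fold change was -0.78. The 2 with the smallest p-values were the cone opsins Opn1sw and Opn1mw. Opn1sw, the short-wavelength opsin, averaged 0.953 ± 0.184 CPM in R6/1 and 394 ± 20.1 CPM in wt retinas (SD, n = 3 each). Opn1mw, the medium-wavelength opsin, had 1, 3 and 0 counts in R6/1 and 1576, 1329 and 1706 counts in wt retinas. The actin-bundling Fscn2 (log2 fold change -0.19, edgeR adjusted p = 0.0675), the ciliary kinase Mak (-0.03, 0.764) and the guanylate cyclase partner Rd3 (-0.13, 0.160) did not pass. Of 12 other matrix genes 10 could be tested in the retina, and 4 were downregulated, beside the same 12.7% of all tested genes. The median over the 10 was -0.37. The retinoid carrier Rbp3, the main soluble protein of the interphotoreceptor matrix, had 1796 ± 229 CPM in R6/1 and 2630 ± 328 CPM in wt retinas (SD, n = 3 each), a log2 fold change of -0.52 (SE 0.10, edgeR adjusted p = 0.00227). The other 3 belong to the matrix around neurons and glia, namely Hapln1 (-1.36), Tnc (-0.95) and Tnr (-0.32). Rbp3 shares its compartment with Impg1 and Impg2, and the difference between it and them was not tested.

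**Figure D3:**
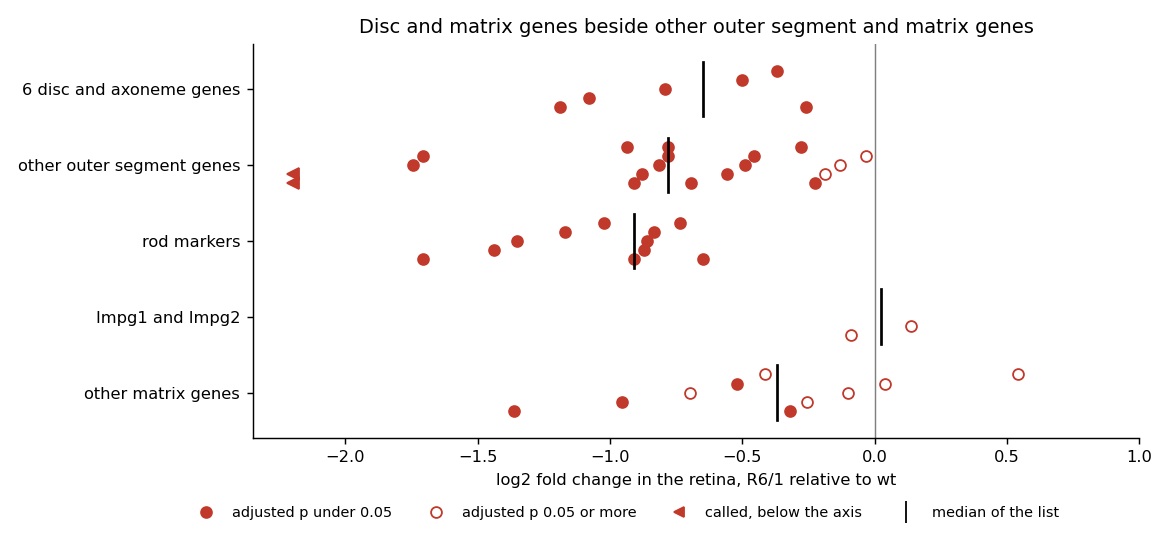
Fitted log2 fold change, R6/1 against wt retina, of each tested gene in 5 lists, from top to bottom the 6 disc and axoneme genes, the other outer segment genes, the rod markers, Impg1 and Impg2, and the other matrix genes. Filled points passed the test, arrowheads at the left edge are Opn1sw and Opn1mw, and black lines are list medians, at -0.65, -0.78, -0.91, 0.03 and -0.37 in that order.

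In the striatum the 8 genes were at low levels, and 1 of them, Impg1, was called different between genotypes. Impg1 had 14, 12 and 14 counts in R6/1 striata, against 56, 65 and 46 counts in wt striata. Every R6/1 library lay below every wt library, at 0.718 ± 0.181 CPM in R6/1 and 3.16 ± 0.291 CPM in wt (SD, n = 3 each). The fitted level fell by 77.6%, a log2 fold change of -2.16 (SE 0.27, edgeR adjusted p = 0.0129). Impg1 was thus 1 of 8 genes called lower, where 1.32% of the 16728 genes tested were, and it ranked 25 by p-value among them. The libraries were apart for this gene alone of the 8, against 25.6% of all tested genes. The call rests on few counts. It was lost in edgeR without wt replicate 1 (adjusted p = 0.0976), wt replicate 3 (0.0664), R6/1 replicate 1 (0.0644) or R6/1 replicate 3 (0.0510). Over all genes, those fits called 1, 5, 6 and 26 lower in that order, against 220 with all libraries. The log2 fold change of Impg1 over all alternatives ran from -2.31 to -1.94. With the replicate number as a block the adjusted p-value was 0.000799.

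Rod markers were almost missing from the same striata, with sums of 2.48 to 5.88 CPM in R6/1 and 3.35 to 5.46 CPM in wt, and Cnga1 and Nr2e3 were listed at 0. The summed level of 8 medium spiny neuron markers, for the main cell type of the striatum, was 802 to 1543 CPM in R6/1 and 2550 to 3506 CPM in wt striata, and 1 of the 8, Penk, was called lower. Choroid plexus markers summed to 25.2, 33.3 and 155 CPM in R6/1 replicates 1 to 3 and to 18.4 to 26.8 CPM in wt striata. The part of medium spiny neurons or choroid plexus in the decrease of Impg1 was not tested.

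Prom1 and Cdhr1 were the best detected of the 8 in the striatum. Prom1, found also in ependyma and other cells outside the retina, had 291, 398 and 345 counts in R6/1 and 330, 432 and 285 counts in wt striata, with a fitted log2 value of R6/1 over wt of -0.13 (SE 0.11, edgeR adjusted p = 0.522). Cdhr1 had 134, 271 and 195 counts in R6/1 and 253, 189 and 157 counts in wt striata, and a fitted value of -0.16 (SE 0.20, edgeR adjusted p = 0.720). Both overlapped between genotypes, and 6 ependymal markers summed to 13.2 to 21.9 CPM in R6/1 and 11.9 to 22.6 CPM in wt striata. Rom1 had 42, 73 and 39 counts in R6/1 and 24, 59 and 45 in wt striata, with a fitted value of 0.13 (SE 0.29, edgeR adjusted p = 0.850). Abca4 had 50, 63 and 66 counts in R6/1 and 46, 49 and 64 in wt striata (0.04, SE 0.23, adjusted p = 0.947). Impg2 had 21, 31 and 15 counts in R6/1 and 24, 24 and 16 in wt striata (-0.07, SE 0.31, adjusted p = 0.932). Rom1, Abca4 and Impg2 likewise overlapped between genotypes. Prph2 had 1, 2 and 5 counts in R6/1 and 3, 2 and 5 counts in wt striata. Rp1 had 5, 19 and 6 counts in R6/1 and 3, 10 and 6 in wt striata (0.48, SE 0.57, adjusted p = 0.693). With 3 counts taken as the detection floor, some libraries of both genotypes held Prph2 at or below it, and no fold change is given for this gene.

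**Figure D4:**
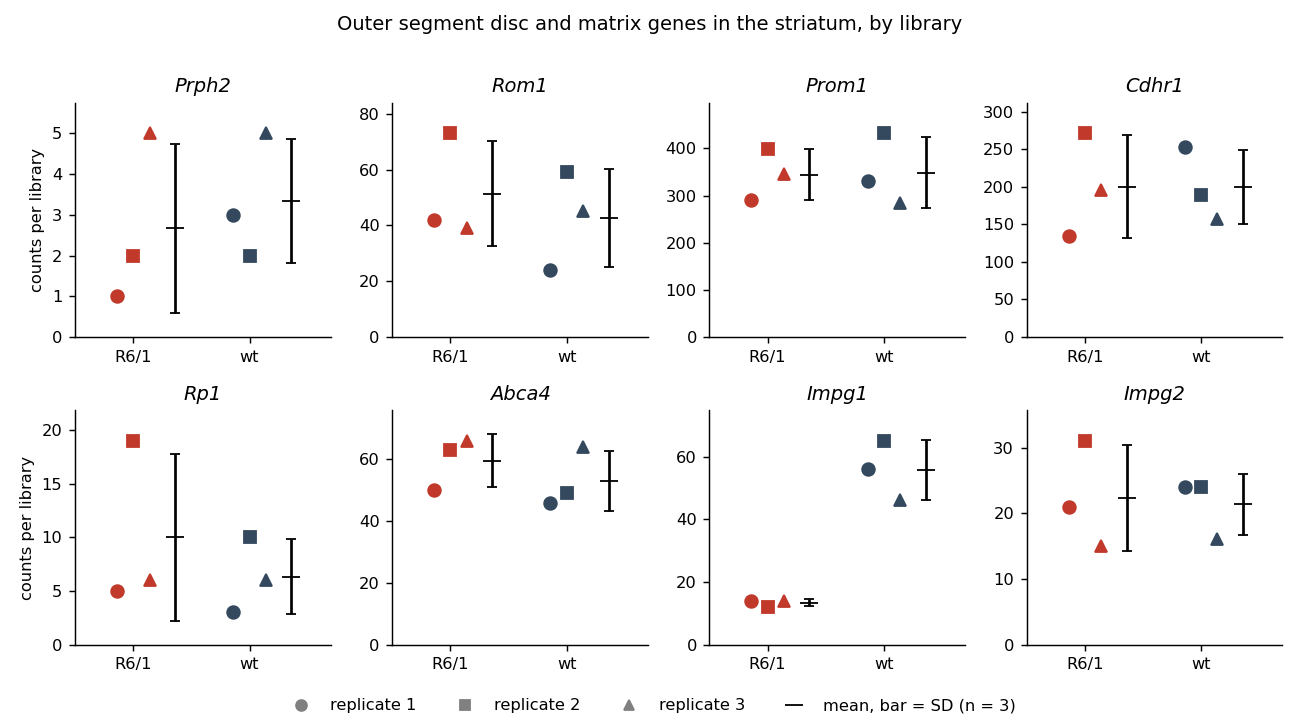
Counts of each gene in the 6 striatal libraries, not scaled for library depth, on axes that start at 0 and differ between genes. Symbols are single libraries, R6/1 left of wt, and the black dash and bar are mean and SD (n = 3). Impg1 is the gene whose 3 R6/1 libraries (12 to 14 counts) all lie below the wt libraries (46 to 65 counts).

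The genotype effect was then set against itself between tissues, as the retinal minus the striatal log2 fold change in one model of all 12 libraries. Of the 8 genes 1 was called higher and 1 lower, where 3.34% and 4.79% of the 15731 genes tested were. Impg1 had a difference of 2.06 (SE 0.22, edgeR adjusted p = 0.000103), which passed in all 21 alternatives run. Impg1 fell in the R6/1 striatum and did not pass the test in the retina. Rom1 had a difference of -1.24 (SE 0.32, edgeR adjusted p = 0.0347). Rom1 fell in the R6/1 retina and did not pass the test in the striatum. That call held in 12 of 21 alternatives and its adjusted p-value reached 0.114 without R6/1 striatum replicate 2. With the replicate number as a block it was lost (adjusted p = 0.0696), as it was with limma-voom (0.0983). It was also lost without any one of the wt retinas, without wt striatum replicate 1 or 3, and without R6/1 striatum replicate 1. No fit of this difference took each pool of mice as its own block, so the Rom1 call was not tested with retina and striatum paired by pool. For Rp1 the difference of -1.34 rested on 3 to 19 striatal counts and did not pass (SE 0.42, edgeR adjusted p = 0.0619). Without wt striatum replicate 2, R6/1 striatum replicate 1 or R6/1 striatum replicate 3 it passed, with adjusted p = 0.0245, 0.0463 and 0.0465, and so it did with DESeq2 on all libraries (adjusted p = 0.0208). Abca4 (-0.57, adjusted p = 0.164), Cdhr1 (-0.25, 0.592), Prom1 (-0.15, 0.483) and Impg2 (0.17, 0.739) did not pass either, Abca4 doing so with the replicate number as a block (adjusted p = 0.0182).

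All 8 genes were higher in retina than in striatum, in both genotypes. Between R6/1 retina and R6/1 striatum 8 of 8 were called higher, where 36.3% of tested genes were, and between wt retina and wt striatum 8 of 8, where 37.8% were. Striatal Prph2 held 1 to 5 counts per library, so no size is given for its difference. Among the other 7 genes the log2 difference was widest for Rp1, at 12.01 in R6/1 mice (12.69 without R6/1 striatum replicate 2) and 13.33 in wt mice. These Rp1 sizes rest on 3 to 19 striatal counts per library, with wt striatum replicate 1 at the floor of 3. The log2 difference was narrowest for Prom1, at 5.38 in R6/1 and 5.52 in wt mice. For the genes whose genotype effect was called different between tissues, it was 9.32 in R6/1 and 7.25 in wt mice for Impg1, and 7.60 in R6/1 and 8.83 in wt mice for Rom1.

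Read as a share of its retinal level, striatal Rp1 was 0.0226% in R6/1 and 0.00925% in wt mice, from 3 to 19 counts per library, and Prph2 had too few striatal counts for a share. Rp1 was within the range of the 11 rod markers, which reached 0.0979% in R6/1 and 0.0371% in wt mice. The remaining 6 genes stood above the highest rod marker in both genotypes. In R6/1 mice their shares ran from 0.160% for Impg2 to 2.42% for Prom1, and in wt mice from 0.182% for Impg2 to 2.17% for Prom1. Striatal Impg1 was 0.161% of its retinal level in R6/1 and 0.653% in wt mice.

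Levels of different genes were compared per kilobase of exon. In R6/1 retina Prph2 led with 598 ± 81.1 CPM per kb, followed by Rom1 with 339 ± 61.8, Cdhr1 with 179 ± 24.3, Rp1 with 175 ± 7.92, Impg1 with 123 ± 10.3, Prom1 with 104 ± 7.30, Abca4 with 80.4 ± 11.0 and Impg2 with 77.6 ± 3.46 (SD, n = 3 each). Neighbours overlapped for Cdhr1 and Rp1 and for Abca4 and Impg2. In wt retina the order was Prph2 with 1395 ± 27.1 CPM per kb, Rom1 with 731 ± 39.2, Rp1 with 309 ± 4.16, Cdhr1 with 237 ± 21.4, Impg1 with 133 ± 10.1, Prom1 with 127 ± 2.52, Abca4 with 116 ± 11.2 and Impg2 with 72.0 ± 4.14. Impg1, Prom1 and Abca4 overlapped there from one to the next. Per kb, the rim tetraspanins were therefore the most abundant of the 8 in the retinas of both genotypes. That order depends on the exon length used, 12.311 kb for Rp1, 3.002 kb for Prph2 and 1.517 kb for Rom1. In CPM not divided by length, R6/1 retinas had 2149 for Rp1, 1795 for Prph2 and 514 for Rom1. The wt retinas had 3806, 4188 and 1110 CPM for the same genes. In the striatum Prom1 and Cdhr1 led, at 2.51 and 2.36 CPM per kb in R6/1 and 2.75 and 2.65 CPM per kb in wt mice, and overlapped in both. Impg1 stood at 0.198 CPM per kb in R6/1 striatum, overlapping Abca4 and Impg2, and at 0.870 CPM per kb in wt striatum, apart from both.

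**Figure D5:**
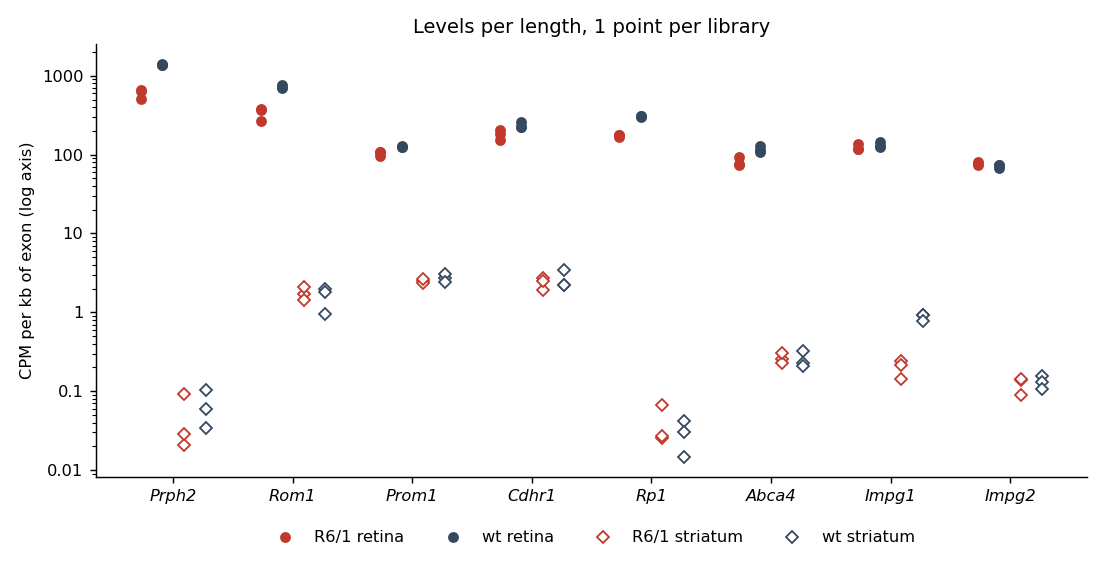
Level per exon length of each gene in each library, in CPM per kb on a log axis, by tissue and genotype, with R6/1 left of wt. Points are single libraries. In wt retina the means run from 1395 CPM per kb for Prph2 to 72.0 for Impg2, and all 8 genes are lower in striatum than in retina.

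The genes whose pattern over the 12 libraries was most like that of the rim and of the matrix were also sought, as the root mean square difference of log2 CPM after each gene was centred on its own mean, over 9840 genes. Among the 5 nearest to Prph2 were the rod phototransduction genes Gnat1 (0.283), Pdc (0.346), Pde6a (0.367) and Cnga1 (0.370). Nearest to Impg2 were Six6 (0.200), Rax (0.224), Gabrr3 (0.227), Nxnl2 (0.239) and Lhx4 (0.284). Six6, Rax and Lhx4 are homeodomain factors of the retina, and Gabrr3 is a GABA receptor subunit. The 12 libraries share the contrast of retina with striatum, so these distances describe that contrast together with the genotype.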

How the data were processed

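RNA of 12 libraries was sequenced from TruSeq stranded mRNA libraries. Per the labels, the authors trimmed reads with Trimmomatic and quantified them with Salmon on GRCm38. The deposited values are estimated counts per gene, given as whole numbers and not normalized, and were used as deposited. Salmon shares reads between similar transcripts. The sources used here do not say whether the counting used strand.

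Counts were tested with edgeR 4.0.16 in R 4.3.3 (quasi-likelihood F-test, robust, TMM), within each tissue for genotype and within each genotype for tissue. A gene entered a test where it reached 10 counts summed over the compared libraries. The difference of genotype effects used one model of 12 libraries with the interaction term, over genes that passed in each tissue. That model treated its libraries as independent, although retina and striatum came from the same animals by the study's methods. The replicate block joined libraries of the same number across both genotypes, which are different mice. No fit of this difference therefore took each pool of mice as its own block. The p-values were adjusted by Benjamini-Hochberg over all genes tested. The standard error is the absolute log2 fold change divided by the square root of F. Printed CPM use TMM factors over all 12 libraries, so their ratios differ slightly from fitted fold changes. CPM per kb divides by the union of GENCODE M21 exons. Detection was set at 3 counts, and such floors cover counting error only.

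Alternatives were DESeq2 1.42.0 (the study's tool), limma-voom (limma 3.58.1), other scalings and filters, a replicate block and leaving out each library. The scripts were tested on simulated data. Deviations of same-numbered libraries from their group means correlated at 0.257 to 0.329 between R6/1 and wt striata and at 0.119 to 0.242 between R6/1 retinas and striata (taken from the same mice by the study's methods), but not throughout between R6/1 and wt retinas (-0.0943 to 0.124) or between wt retinas and striata (-0.0261 to 0.0195). Libraries of unlike number reached 0.240 between R6/1 and wt striata and 0.0201 between R6/1 retinas and striata. They reached 0.232 between R6/1 and wt retinas and 0.0557 between wt retinas and striata. Nothing says that the pools were prepared on separate days, so p-values measure the spread between pools.

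The genes and lists were chosen with earlier results of these data known. Named genes were the 8, the 2 with the smallest retinal p-value among called genes of each context list, every called gene of a list with at most 5 called, and the 5 nearest patterns for Prph2 and Impg2. One gene and the ratios that rest on it are not reported here. Those that did not pass among the outer segment genes were named after their values were seen.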

Additional observations from a re-analysis of the deposited data

Results flagged for a closer look

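The genotype effect was called different between retina and striatum for 2 of the 8 genes, by the interaction term of one model of 12 libraries (edgeR, adjusted over 15731 genes). The retinal minus the striatal log2 fold change was 2.06 for Impg1, called in 21 of 21 alternatives, and -1.24 for Rom1, called in 12 of 21 and lost with limma-voom and with the replicate block. For Impg1 the log2 fold change was -0.09 in the retina and -2.16 in the striatum. For Rom1 it was -1.08 in the retina and 0.13 in the striatum. Striatal Impg1 had 12 to 14 counts per R6/1 library and 46 to 65 per wt library, and striatal Rom1 39 to 73 counts per R6/1 library and 24 to 59 per wt library. The model treated the libraries as independent, and neither call was tested with retina and striatum paired by pool of mice. No outlier test was run within groups of 3 libraries.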

How the results depend on the processing

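Prph2, Rom1, Rp1 and Abca4 were called lower in R6/1 retina under all 16 alternatives, and leaving out each library left 4 to 6 of the 8 genes called. Prom1 was lost with library totals in place of TMM (adjusted p = 0.105), and Cdhr1 in a single fit of 12 libraries (0.0954). The cause was not tested. In the striatum the number called ranged from 0 to 1 over the left-out libraries. It was 0 at an adjusted p-value under 0.01, which 7 of all 16728 genes tested passed. In the fits with a library left out where edgeR called none of the 8, Impg1 had unadjusted p-values of 6.33e-05 to 0.000207. DESeq2 on all libraries called Impg1 (adjusted p = 3.96e-06), as did DESeq2 with the replicate block, added after seeing the data (0.000864). For the difference between tissues the number called ranged from 1 to 3 over the left-out libraries, and was 1 with limma-voom (Rom1 adjusted p = 0.0983) and 1 at an adjusted p-value under 0.01. With the replicate number as a block, Rom1 lost this call (0.0696) and Abca4 gained it (0.0182), so that the count stayed at 2. With that block, Impg2 in the retina had an adjusted p-value of 0.136 and no call on the 8 genes changed within a tissue. Scaling by library totals shifted the all-gene median to 0.13 (retina) and 0.12 (striatum), and retinal Impg1 to 0.03. Of the other values for single genes, 698 kept their side of the threshold, among them uncalled values near 0 that changed sign, 22 lost a call and 6 gained one. All 8 tissue calls held throughout. Depth limits Prph2 and Rp1 in the striatum.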
